A study of Homo sapiens with 4 samples.

Results

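Filamins and alpha-actinins are the large crosslinkers of the actin cytoskeleton, and 4 of their genes are described here: the filamins FLNA and FLNC and the alpha-actinins ACTN1 and ACTN4. A crosslink site was assigned to a member when the gene label in the deposited lists held exactly that symbol. By this rule the members held 402 of the 158922 sites listed for PDCD4 and 208 of the 111361 sites listed for IgG. Of the sites with a score above 5, which is the threshold of the study's methods, 25 of 2354 for PDCD4 and 2 of 768 for IgG lay in the members.

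PDCD4, a tumour suppressor that binds RNA, was mapped by iCLIP, in which UV light joins protein to RNA before the protein is immunoprecipitated. The cells were wild-type MCF10A, a line of non-tumorigenic human mammary epithelium, grown in medium with horse serum, EGF, insulin, hydrocortisone and cholera toxin. There were 2 samples immunoprecipitated with antibody to PDCD4 and 2 with control IgG, from cells of the same line and culture conditions. In iCLIP, reverse transcription stops where protein was cross-linked to RNA, so the score of a 1-nt site counts the cDNAs that ended there. The authors deposited 1 list for each immunoprecipitation with the replicates pooled, so no spread between replicates could be computed, no test between PDCD4 and IgG was possible, and every interval below (95%) covers counting error only. The amount of each mRNA was not measured in these files, and its part in the sums of cDNAs was not tested.

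Filamins are long rod-shaped proteins made of an amino-terminal actin-binding domain followed by a chain of immunoglobulin-like repeats, and they join actin filaments into orthogonal networks and tether them to integrins. FLNA is the widely expressed filamin of non-muscle cells, and FLNC is the filamin of striated muscle. Alpha-actinins are antiparallel dimers with an actin-binding domain, spectrin repeats and a calmodulin-like domain, and they bundle actin in stress fibres and at adhesions. ACTN1 and ACTN4 are the non-muscle forms, whereas ACTN2 and ACTN3 belong to the sarcomere.

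The PDCD4 list summed to 409308 cDNAs and the IgG list to 276139, with mean scores of 2.58 and 2.48, so values are given per 10000 cDNAs of a list. Exons of protein-coding transcripts took 44.7% of the PDCD4 cDNAs and 29% of the IgG cDNAs, and introns took 47.8% and 65.0%. Markers of these cells were in place: all 8 epithelial markers, among them KRT5 and TP63, had an exonic PDCD4 site, with 793 exonic cDNAs in PDCD4 and 196 in IgG, whereas the 4 markers of striated muscle, the 3 of immune cells and the 2 of endothelium had none in either list, and of the 4 fibroblast markers DCN alone had one, with 2 exonic cDNAs in each list.

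The sites that carried the most PDCD4 cDNAs in each member are shown with their surroundings to make plain what was bound. Each sequence is the RNA strand from 5′ to 3′ on GRCh38, written with t for u, and the capital marks the listed site. The windows are genomic and can reach from an exon into the adjoining intron. In FLNA (chrX:154348524-154374634), on the minus strand of chromosome X, the top sites lay in coding exons 20, 28, 27 and 17 and, among introns, in intron 30, with scores of 11, 9, 9, 8 and 7 cDNAs.
FLNA exon 20, codon 951, chrX:154361733-154361793: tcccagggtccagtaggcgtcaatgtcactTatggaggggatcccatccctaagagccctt
FLNA exon 28, codon 1543, chrX:154358297-154358357: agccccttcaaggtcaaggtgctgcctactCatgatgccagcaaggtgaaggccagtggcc
FLNA exon 27, codon 1511, chrX:154358482-154358542: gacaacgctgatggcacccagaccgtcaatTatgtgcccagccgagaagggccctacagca
FLNA exon 17, codon 834, chrX:154362451-154362511: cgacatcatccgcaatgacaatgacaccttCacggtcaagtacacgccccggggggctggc
FLNA intron 30, chrX:154356921-154356981: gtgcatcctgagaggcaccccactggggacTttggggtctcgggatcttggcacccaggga

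In the alpha-actinins the top coding sites lay in exons 1 and 17 of ACTN1 (chr14:68874128-68979440, minus strand), with scores of 7 and 6, and in exons 17 and 12 of ACTN4 (chr19:38647649-38731589, plus strand), with scores of 8 and 6. A 29-nt window is shown for 1 of the 2 sites with a score of 6 in the long 3′UTR of ACTN4. The site shown had 3 IgG cDNAs within 10 nt, and the other had 0. For at least 1 of the ACTN4 sites with a score of 6 or 8, the next 30 nt also occur elsewhere in the genome, as described below.
ACTN1 exon 1, codon 12, chr14:68978993-68979053: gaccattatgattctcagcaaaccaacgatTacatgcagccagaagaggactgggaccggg
ACTN1 exon 17, codon 681, chr14:68880872-68880932: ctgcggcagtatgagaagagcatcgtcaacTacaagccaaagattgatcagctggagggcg
ACTN4 exon 17, codon 676, chr19:38725711-38725771: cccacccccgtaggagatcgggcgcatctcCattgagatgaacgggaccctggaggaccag
ACTN4 exon 12, codon 446, chr19:38721553-38721613: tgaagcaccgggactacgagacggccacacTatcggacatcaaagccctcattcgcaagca
ACTN4 exon 21, 3′UTR, chr19:38730058-38730086: ctggcctcacgtgtCtcagattttctaag

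None of the 25 member sites with a PDCD4 score above 5 coincided with an IgG site, and 2 of them had an IgG site within 10 nt. By the methods, IgG crosslink sites had been subtracted from the PDCD4 replicates, and 721 positions remained in both lists over all genes. Of these 25 site nucleotides, 13 were C, 9 were U, 3 were G and 0 were A.

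FLNA was the member with the clearest excess in the PDCD4 list. It had 658 cDNAs at 208 PDCD4 sites and 96 cDNAs at 29 IgG sites. This corresponded to 16.1 cDNAs per 10000 (14.9 to 17.4) against 3.48 (2.82 to 4.25), a log2 ratio of 2.20 (1.90 to 2.53). By summed cDNAs FLNA ranked 20 of the 12912 genes in the PDCD4 list and 469 of the 11829 genes in the IgG list. Among the 3977 genes with at least 50 cDNAs over both lists, 13.6% had a log2 ratio above 1, and 111 genes (2.79%) had a larger ratio than FLNA.

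The alpha-actinins did not show an excess of this size. ACTN4 had 322 cDNAs at 111 PDCD4 sites and 159 at 68 IgG sites, or 7.87 (7.03 to 8.77) against 5.76 (4.90 to 6.73) per 10000, a log2 ratio of 0.45 (0.17 to 0.73). With the cDNAs in exons of protein-coding genes as the total, the ratio of ACTN4 turned to -0.18 (-0.45 to 0.11). That scaling lowers every log2 ratio by 0.62 and puts the median of all genes at -0.76 in place of -0.14, so that ACTN4 stayed above the median gene on either scale. ACTN1 lay on the other side. It had 271 cDNAs at 83 PDCD4 sites and 274 at 111 IgG sites, or 6.62 (5.86 to 7.46) against 9.92 (8.78 to 11.2) per 10000, a log2 ratio of -0.58 (-0.83 to -0.34). A ratio below 0 was common, with 56.4% of the 3977 genes there. The sign for ACTN1 depended on weak sites. Restricted to scores above 3 in both lists, its log2 ratio was 0.75 (0.21 to 1.38), whereas the alternative settings that kept all scores left it below 0.

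FLNC had no listed site in either list in the files used here, and no site of any other label fell between the ends of the gene (chr7:128830406-128859274). A count of 0 allows up to 3 cDNAs, which is 0.0733 per 10000 for PDCD4 and 0.109 per 10000 for IgG. This limit does not cover cDNAs at positions that the authors' filter removed. The sarcomeric ACTN2 and ACTN3 likewise had 0 sites in both lists. The plot of cDNAs by member sets these levels side by side.

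**Figure D1:**
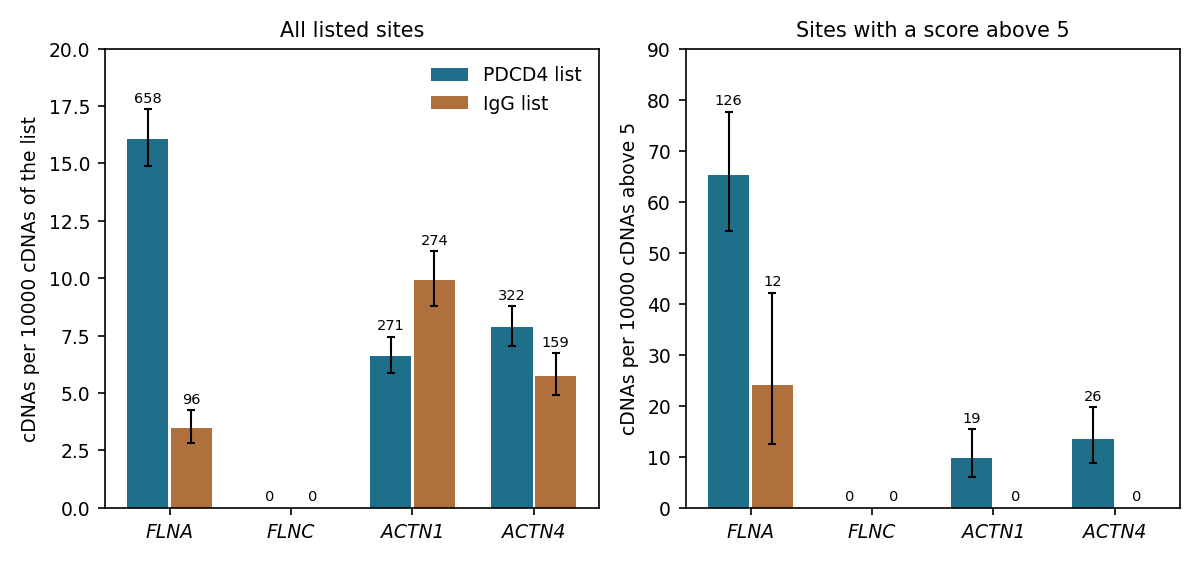
Bars give cDNAs per 10000 cDNAs of the PDCD4 or IgG list for FLNA, FLNC, ACTN1 and ACTN4, over all listed sites (left) and over sites with a score above 5, per 10000 cDNAs at such sites (right); error bars are 95% Poisson intervals and the numbers above the bars are cDNAs. FLNA stands at 16.1 against 3.48 on the left, ACTN1 is higher in the IgG list, and above a score of 5 the alpha-actinins have PDCD4 cDNAs and no IgG cDNAs.

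Above a score of 5, FLNA had 126 cDNAs at 18 PDCD4 sites and 12 at 2 IgG sites, a log2 ratio of 1.33 (0.58 to 2.43). With exonic cDNAs as the total it was 0.73 (-0.02 to 1.82), and for numbers of sites 1.05 (-0.51 to 4.71). Both of these intervals include 0, and those of its other alternative settings lay above 0. ACTN1 had 19 cDNAs at 3 PDCD4 sites and ACTN4 had 26 cDNAs at 4, and neither had an IgG site above 5. Against the limit of 3 cDNAs over the IgG list, ACTN1 was at least 1.63-fold higher and ACTN4 at least 2.23-fold higher in PDCD4, taking the PDCD4 sums as counted. With the counting error of both sums, the lower ends of the exact intervals were 1.20-fold and 1.69-fold. The 26 cDNAs of ACTN4 include a site whose next 30 nt also occur elsewhere in the genome, as described below. The ratio of ACTN4 without such sites was not computed. With an IgG threshold of 3 in place of 5, ACTN1 had a log2 ratio of 0.60 (-0.32 to 1.42), an interval that includes 0. Of the 1520 genes with a site above 5, 4.28% exceeded 2-fold when IgG was set to at least these 3 cDNAs. FLNA and ACTN4 were among them, ACTN4 with the site that recurs in the genome counted. By this limit a gene with 19 or fewer such PDCD4 cDNAs cannot exceed 1.63-fold, so the share depends on depth and is not a share of enriched genes. Strong sites made up 8.65% of the PDCD4 sites of FLNA (5.54 to 13.3, Wilson interval), 3.61% of those of ACTN1 (1.24 to 10.1) and 3.60% of those of ACTN4 (1.41 to 8.90), compared with 1.48% of the whole PDCD4 list. In IgG, 2 of the 29 FLNA sites passed the threshold (6.90%, 1.91 to 22), a share whose interval contains that of PDCD4. The whole IgG list had 0.69%, so FLNA lay above the share of its list in IgG as well. For ACTN1, 0 of 111 IgG sites passed, which by the limit of 3 counts allows a share of up to 2.70%. For ACTN4, 0 of 68 did, which allows up to 4.41% by the same limit. The 2 strong IgG sites of FLNA, each with a score of 6, lay in intron 2 and in exon 47.

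Splitting each gene into exons and introns separated FLNA from the alpha-actinins. Exonic sites are those in exons of protein-coding transcripts. All of FLNA, ACTN1 and ACTN4 had more exonic cDNAs per 10000 in PDCD4 than in IgG. FLNA had 453 exonic cDNAs against 69, a log2 ratio of 2.13 (1.78 to 2.53). ACTN4 had 181 against 35, a log2 ratio of 1.77 (1.27 to 2.37). ACTN1 had 126 against 37, a log2 ratio of 1.17 (0.66 to 1.77). An exonic ratio above 1 was not rare: of the 1318 genes with at least 50 exonic cDNAs, 34.9% had it, and their median was 0.58. A larger exonic ratio was found for 10.3% of these genes than for FLNA, 15.2% than for ACTN4 and 29.2% than for ACTN1. With exonic cDNAs as the total, the 3 ratios were 1.51, 1.15 and 0.55 in the order FLNA, ACTN4 and ACTN1, with a lower bound of 0.04 for ACTN1, and the median gene was at -0.04.

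Introns behaved differently among the members. FLNA had 182 intronic cDNAs at 60 PDCD4 sites and 24 at 6 IgG sites, a log2 ratio of 2.30 (1.74 to 3.03). Above a score of 5 the direction turned, with 19 PDCD4 cDNAs at 3 sites and 6 IgG cDNAs at 1 site and a log2 ratio of -0.44 (-1.67 to 1.32), whereas the exonic ratio of FLNA there was 1.81 (0.84 to 3.50). Over all scores, only 6.40% of the 2015 genes with at least 50 intronic cDNAs had an intronic log2 ratio above 1, and 17 genes had a larger one than FLNA. ACTN1 had 129 intronic cDNAs at 40 PDCD4 sites and 198 at 81 IgG sites, a log2 ratio of -1.18 (-1.52 to -0.86). ACTN4 had 132 at 41 sites and 124 at 53, a log2 ratio of -0.48 (-0.84 to -0.11). An intronic ratio below 0 was the usual case, with 75.5% of the genes there and a median of -0.61. The lowest scores listed differed between the lists. Intronic sites with no listed neighbour close by began at 3 in PDCD4 and 2 in IgG for ACTN1 and ACTN4, and at 4 and 3 for FLNA. The mean intronic score was 3.23 in PDCD4 and 2.44 in IgG for ACTN1, and 3.22 and 2.34 for ACTN4. The part of this difference in the intronic ratios and in the contrast with exons was not tested. The exonic ratio exceeded the intronic one by 2.39 (1.77 to 3.0) in ACTN1 and 2.28 (1.65 to 2.91) in ACTN4, while in FLNA the difference was -0.21 (-0.92 to 0.51). This difference does not depend on the totals of the lists. The interval of FLNA lies below those of both alpha-actinins. The plot of exonic and intronic ratios shows this split.

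**Figure D2:**
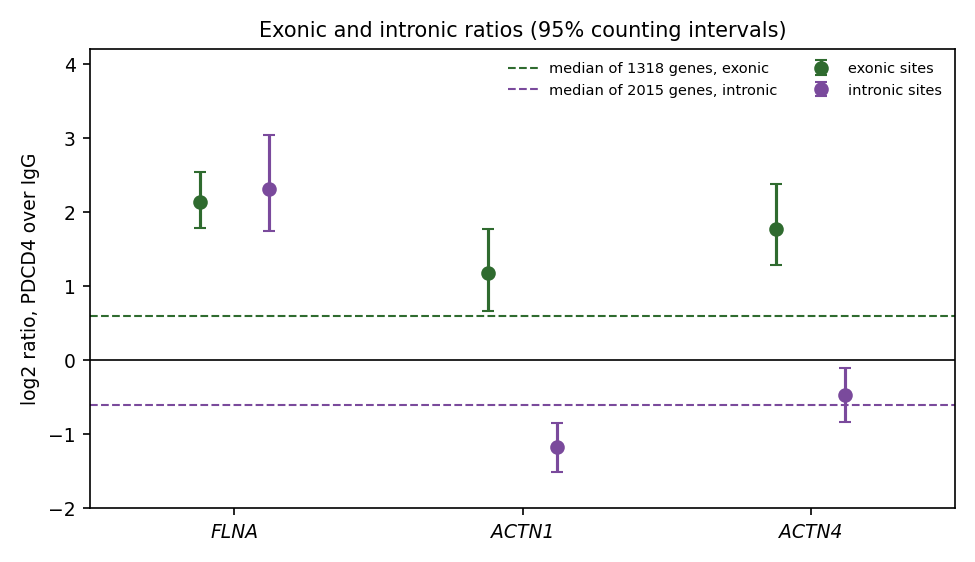
Points give the log2 ratio of PDCD4 over IgG cDNAs per 10000 for exonic and intronic sites of FLNA, ACTN1 and ACTN4, with 95% counting intervals; dashed lines are the medians over 1318 genes (exonic, 0.58) and 2015 genes (intronic, -0.61). In FLNA both points are above 2, whereas in ACTN1 and ACTN4 the exonic point is above 0 and the intronic point below it.

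The intronic cDNAs of FLNA came largely from intron 30. This intron (chrX:154355073-154357250, 2178 nt) held 28 of the 60 intronic PDCD4 sites and 93 of the 182 cDNAs (51.1%), with scores up to 7, and 1 IgG site with 3 cDNAs. It follows exon 30, which is only 24 nt long and is included in 2 of the 5 annotated coding transcripts that span it. Exon 30 itself held 1 PDCD4 site with 4 cDNAs. Without intron 30 the intronic log2 ratio of FLNA was 1.46 (0.82 to 2.28), from 89 PDCD4 and 21 IgG cDNAs. Further PDCD4 sites lay in intron 15 (9 sites, 22 cDNAs), intron 21 (7 sites, 16 cDNAs) and intron 2 (5 sites, 18 cDNAs), and 7 of the 60 lay in introns shorter than 500 nt, although the median FLNA intron has 105 nt.

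Intron 1 is by far the longest in both alpha-actinins and held 21 of the 40 intronic PDCD4 sites of ACTN1 and 14 of the 41 of ACTN4. Intron 1 of ACTN1 (53279 nt) had 65 PDCD4 cDNAs and 112 IgG cDNAs at 46 sites, a log2 ratio of -1.34 (-1.82 to -0.90), and the other introns together gave -0.99 (-1.48 to -0.51). Intron 1 of ACTN4 (52692 nt) had 43 PDCD4 cDNAs and 74 IgG cDNAs at 32 sites, also with a log2 ratio of -1.34 (-1.93 to -0.79). The other introns of ACTN4 together had 89 PDCD4 and 50 IgG cDNAs, with a log2 ratio of 0.25 (-0.25 to 0.79). In ACTN4 the interval thus lay below 0 for intron 1 and included 0 for the rest, whereas in ACTN1 both lay below 0.

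Levels were compared between genes per kb of spliced mRNA. The PDCD4 densities were 1.30 cDNAs per 10000 per kb for FLNA (1.18 to 1.43), 0.886 for ACTN4 (0.762 to 1.03), 0.807 for ACTN1 (0.671 to 0.963) and 0 for FLNC. FLNA thus lay above both alpha-actinins, whose intervals overlapped. The IgG densities were 0.331 for ACTN1 (0.229 to 0.462), 0.294 for FLNA (0.229 to 0.372) and 0.254 for ACTN4 (0.177 to 0.353), all within one another's intervals, and 0 for FLNC. Outside the exons of these transcripts, the PDCD4 densities per kb were 0.285 for FLNA, 0.0436 for ACTN4 and 0.0356 for ACTN1, with 93 of the 182 intronic cDNAs of FLNA in intron 30.

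The shares of sites by region are given next. In FLNA the coding sequence held 132 of the 208 PDCD4 sites (63.5%, 56.7 to 69.7) and 19 of the 29 IgG sites (65.5%, 47.3 to 80.1). Introns held 28.8% of the PDCD4 sites and 20.7% of the IgG sites, the 3′UTR held 9 and 3 sites, and the 5′UTR held 2 and 0. In ACTN1 the coding sequence held 26 of 83 PDCD4 sites (31.3%, 22.4 to 41.9) against 9 of 111 IgG sites (8.11%, 4.32 to 14.7), and introns held 48.2% against 73.0%. In ACTN4 the coding sequence held 27 of 111 PDCD4 sites (24.3%, 17.3 to 33.1) against 5 of 68 IgG sites (7.35%, 3.18 to 16.1), and introns held 36.9% (28.5 to 46.2) against 77.9% (66.7 to 86.2). The shares of the 2 lists did not overlap within their intervals for either region of ACTN1 and ACTN4. For FLNA they overlapped for both regions, with only 29 IgG sites. The whole lists differed in the same direction, with introns at 47.8% of the PDCD4 cDNAs and 65.0% of the IgG cDNAs. A shift in this direction was thus not particular to ACTN1 and ACTN4.

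**Figure D3:**
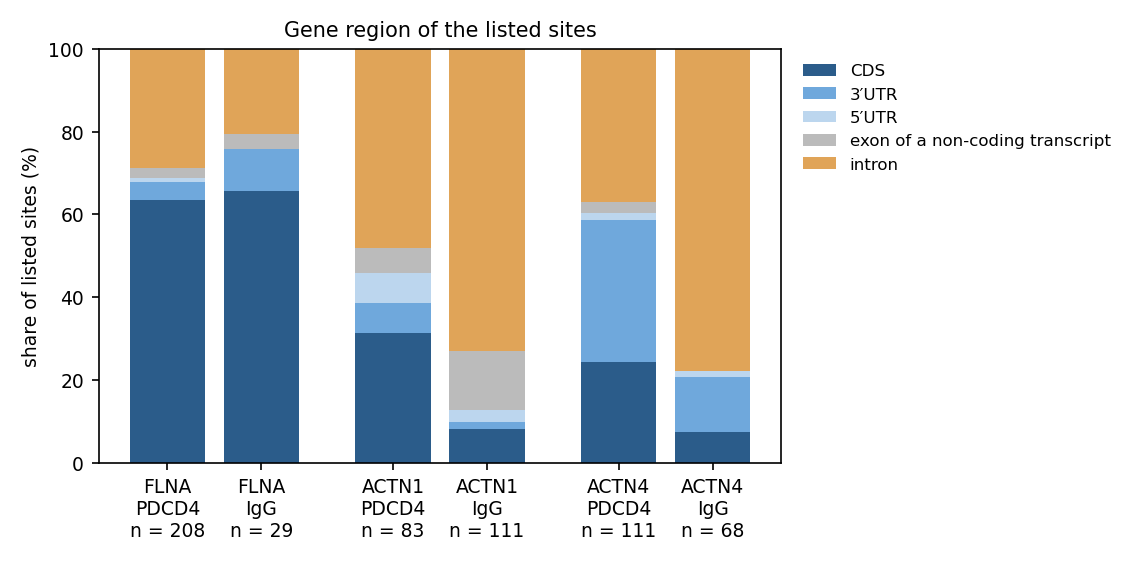
Stacked bars give the share of listed sites in the coding sequence (CDS), 3′UTR, 5′UTR, exons of non-coding transcripts and introns, for each gene and list, with the number of sites under each bar. The PDCD4 and IgG bars of FLNA look alike, with 63.5% and 65.5% in the CDS, while those of ACTN1 and ACTN4 have more intron in the IgG list.

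ACTN4 stood out by its 3′UTR. With 2157 nt, it makes up 43.2% of the mRNA, against 19.6% in ACTN1 and 3.74% in FLNA. It held 94 PDCD4 cDNAs at 38 sites and 17 IgG cDNAs at 9, a log2 ratio of 1.83 (1.14 to 2.74), close to the 1.81 (1.08 to 2.78) of its coding sequence. Of the exonic sites of ACTN4, 38 of 67 (56.7%, 44.8 to 67.9) in PDCD4 and 9 of 15 in IgG were in the 3′UTR. The densest 100 nt of the mRNA for PDCD4, at mRNA positions 3823 to 3922, lay there, with 34 cDNAs at 16 sites and 7 IgG cDNAs. No PDCD4 site was listed in the 1068 nt after it, and no IgG site in the last 1132 nt of the mRNA. Toward the 5′ end, 807 nt between mRNA positions 66 and 874 had no PDCD4 site either, a stretch that takes in the start of the coding sequence.

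In FLNA the coding sites were spread along nearly the whole message. PDCD4 sites fell in 38 of its 48 exons and IgG sites in 16, and sites with a PDCD4 score above 5 fell in 12. With the coding sequence cut into 10 equal bins, bins 1 and 2 held 7 and 5 PDCD4 sites, and each later bin held between 8 and 19. Bin 4, which includes the top site in exon 20, held the most, with 19 sites and 74 cDNAs against 2 IgG sites and 6 cDNAs. The amino-terminal actin-binding domain is encoded at the start of the message, and the immunoglobulin-like repeats take up the rest. The densest 100 nt, at mRNA positions 2922 to 3021 in exon 19, held 24 cDNAs at 8 sites and 0 IgG cDNAs. This was 5.30% of the 453 mRNA cDNAs, whereas the densest 100 nt held 17.1% in ACTN1 and 18.8% in ACTN4. The longest stretch of FLNA mRNA without a PDCD4 site was 463 nt.

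In ACTN1 the PDCD4 sites fell in 11 of 22 exons. Of its coding sites, 7 lay in bin 1 of 10, which contains the top site at codon 12, and 6 in bin 8. These bins had 20 and 21 PDCD4 cDNAs and 0 IgG cDNAs. The 6 sites of bin 8 formed the densest 100 nt, at mRNA positions 2188 to 2287, and all lay in exon 17. Between mRNA positions 936 and 1510, 573 nt were without a PDCD4 site. In its 5′UTR, ACTN1 had 18 PDCD4 cDNAs at 6 sites and 8 IgG cDNAs at 3.

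**Figure D4:**
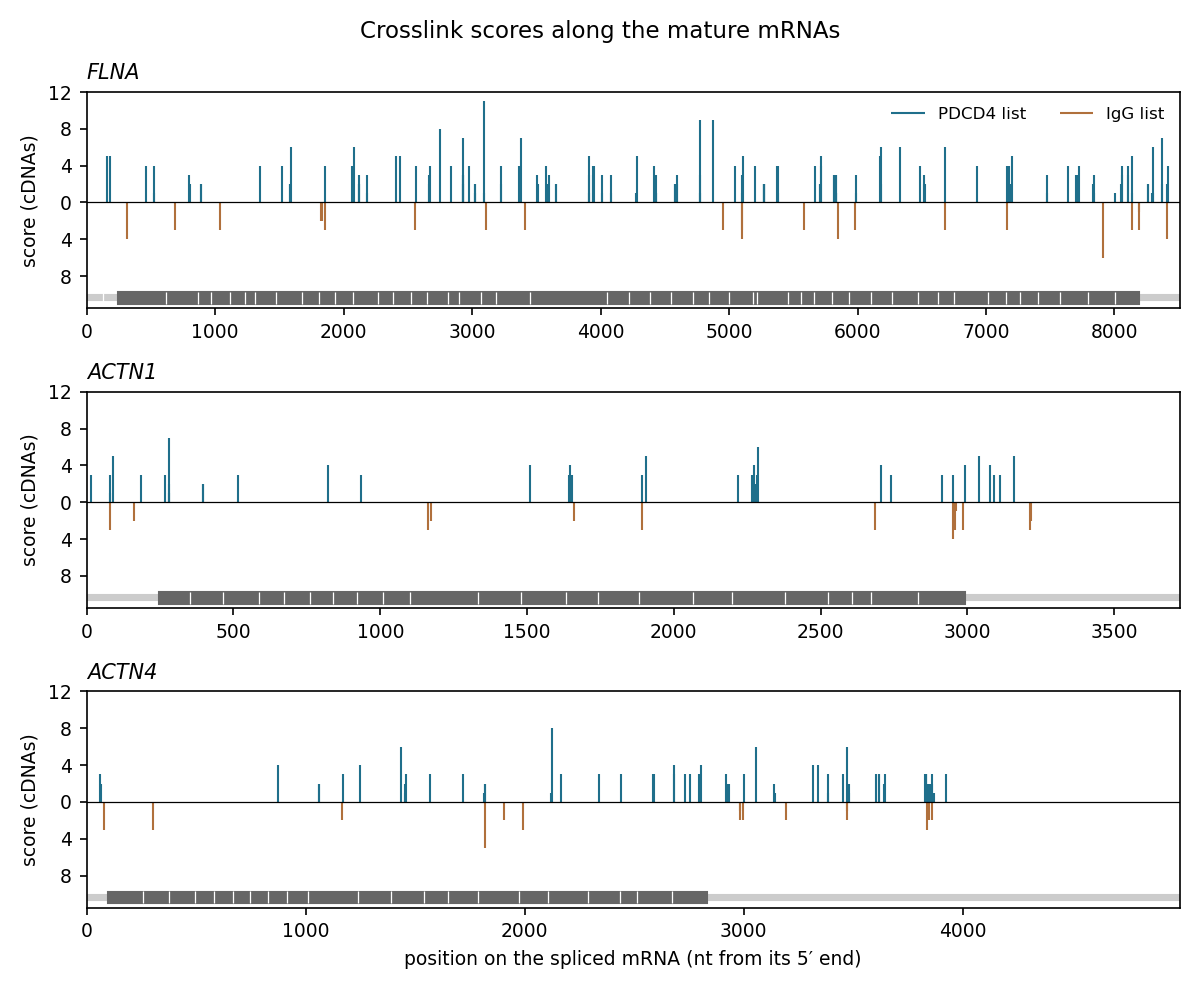
Vertical lines give the score in cDNAs of each listed site along the spliced mRNAs of FLNA, ACTN1 and ACTN4, with PDCD4 upward and IgG downward; the bar under each profile shows the coding sequence (dark), the UTRs (light) and exon boundaries (white). FLNA is covered along its length with a top score of 11, ACTN4 has a cluster in its 3′UTR and no site in the last 1068 nt, and ACTN1 has its tallest lines in exons 1 and 17, with scores of 7 and 6.

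The coding sequences of ACTN1 and ACTN4 were 82.6% identical over 2678 aligned nucleotides, so the positions bound could be compared directly. Of the 26 coding PDCD4 sites of ACTN1 and the 27 of ACTN4, 0 were at the same aligned position. Within 10 nt of a site of the other gene lay 7 of the 26 and 11 of the 27. Exact copies elsewhere in the genome were also counted, and near-identical sequence was not searched. The 30 nt after a site, where its cDNA begins, occurred elsewhere in the genome for 0 of the 143 exonic PDCD4 sites of FLNA, 1 of 38 in ACTN1 (3 cDNAs) and 3 of 67 in ACTN4 (15 cDNAs), and for 4 of 65, 6 of 45 and 3 of 44 of their other PDCD4 sites. The 3 exonic ACTN4 sites with 15 cDNAs include at least 1 of its 4 strong sites, because no other exonic PDCD4 site of ACTN4 scored above 4. The counts do not show which strong site this was.

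Within internal exons few sites lay in the last 50 nt. Of 167 PDCD4 sites in internal exons of FLNA, ACTN1 and ACTN4, 81 lay in the first 50 nt of the exon and 6 in the last 50 nt, a log2 ratio of 3.55 (2.57 to 5.24). In the 50 nt before these last 50, there were 74 sites. Each gene showed the same pattern, with 58 against 4 sites in FLNA, 13 against 1 in ACTN1 and 10 against 1 in ACTN4. It was not particular to PDCD4 or to the members: IgG had 15 sites in the first and 2 in the last 50 nt of the same exons, and over internal exons of all genes the counts were 11139 against 1146 in PDCD4 (log2 ratio 3.28) and 3416 against 535 in IgG (2.67). Windows of 100 nt gave 127 against 80 sites and a log2 ratio of 0.66.

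**Figure D5:**
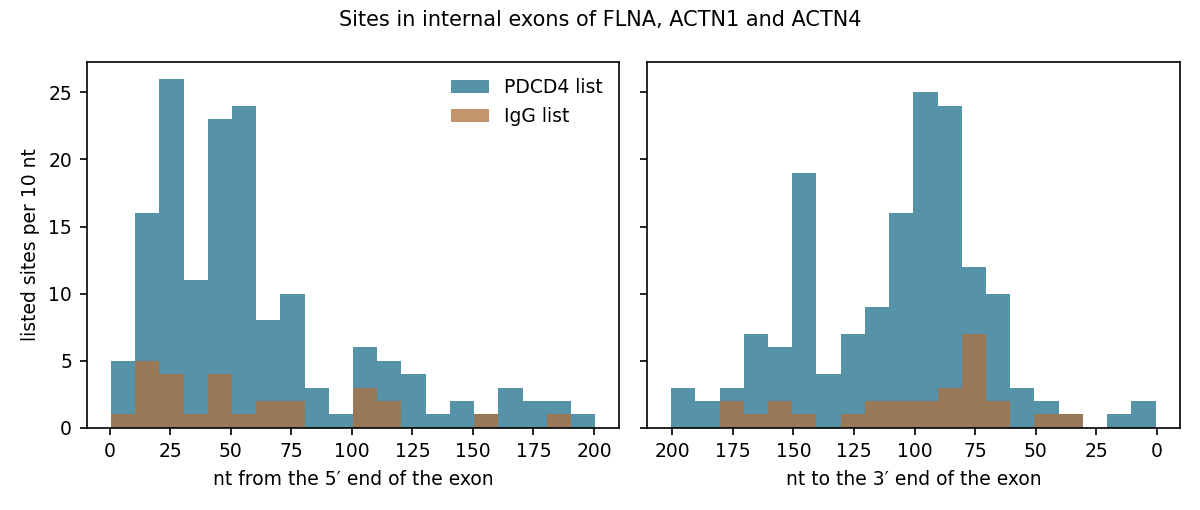
Histograms count listed sites per 10 nt by their distance from the 5′ end (left) and to the 3′ end (right) of internal exons of FLNA, ACTN1 and ACTN4, each site entering both panels, for the PDCD4 and IgG lists overlaid. Of 167 PDCD4 sites, 81 lie in the first 50 nt and 6 in the last 50 nt; of 28 IgG sites, 15 and 2 do.

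At the site itself, pyrimidines prevailed. Over the 248 exonic PDCD4 sites of the members, 39.5% were C, 37.9% U, 14.1% A and 8.47% G. The 3 mRNAs hold between 16.9% and 19.3% U and between 27.1% and 31.4% G, so U was above and G below its share in the message. Over all genes the exonic PDCD4 sites were 43.2% U and 28.5% C, so that the members had a larger share of C and a smaller share of U. The 51 exonic IgG sites of the members had 29.4% C, 29.4% U and 23.5% G. Over all genes, however, the 31575 exonic IgG sites were 47.5% U, 25.3% C and 13.1% G. A high share of pyrimidines was therefore not particular to PDCD4.

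Many of the printed sites are followed by an A, as in the top site of FLNA, and the steps CA and UA were therefore counted, a choice made after the sequences had been seen. CA or UA stood at 92 of the 248 exonic PDCD4 sites (37.1%, 31.3 to 43.3) and at 9 of the 51 exonic IgG sites (17.6%, 9.57 to 30.3), while these steps make up between 10.6% and 11.1% of the 3 mRNAs. By gene the PDCD4 share was 39.2% in FLNA, 44.7% in ACTN1 and 28.4% in ACTN4. Among the 19 exonic PDCD4 sites with a score above 5 it was 78.9% (56.7 to 91.5). As 9 of these 19 are the printed sites that prompted the count, the share was also taken without them, which left 7 of 10 (39.7 to 89.2%), and 84 of 239 (35.1%, 29.4 to 41.4) over all scores. Over all genes it was 30.8% of exonic PDCD4 sites and 46.6% of those above 5, against 28.2% and 33.1% in IgG.

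Across 48 actin-binding genes and partners of the 2 families, 39 had a site in either list and 24 had at least 50 cDNAs over both. Of these 24, 10 had a log2 ratio above 0, 4 had one above 1 and 14 were below 0, with a median of -0.23 beside the -0.14 of all 3977 genes. Over all 3977 genes, 43.6% were above 0, 13.6% above 1 and 56.4% below 0. For exonic cDNAs, 12 of 16 were above 0 and 3 above 1, with a median of 0.69 beside 0.58. Over the 1318 genes with at least 50 exonic cDNAs, 74.2% were above 0 and 34.9% above 1. The list as a whole thus lay near the other genes. INPPL1, the filamin-binding inositol phosphatase SHIP2, had 90 PDCD4 cDNAs at 30 sites and no IgG site, which is at least 20.2-fold higher against 3 IgG cDNAs with the PDCD4 sum taken as counted. The exact interval of its log2 ratio began at 4.01. FSCN1, the bundling protein fascin, had 82 against 14 cDNAs (log2 ratio 1.90, 1.15 to 2.92), and PDLIM4, an alpha-actinin-binding PDZ and LIM protein, 82 against 23 (1.22, 0.58 to 2.0). At the other end ANLN, the cytokinetic scaffold anillin, had 38 against 99 (-1.93, -2.53 to -1.40), PLS3, the bundling protein plastin 3, 25 against 37 (-1.12, -1.93 to -0.36), and SVIL, the membrane-associated supervillin, 78 against 82 (-0.64, -1.11 to -0.17).

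By their level in the 2 lists, the protein-coding genes nearest to FLNA were CAPN15, with 16.8 cDNAs per 10000 in PDCD4 and 3.51 in IgG, and SLC16A3, with 12.2 and 3.37. Both had a smaller exonic ratio than FLNA (1.17 and 1.64), and 442 of the 689 PDCD4 cDNAs of CAPN15 were intronic. Nearest to ACTN1 were LPP (6.96 and 9.71) and PRKAR1B (6.16 and 10.4), and nearest to ACTN4 were KDM4B (7.77 and 5.72) and PRKDC (8.14 and 5.69). Nearness is the distance between log2 levels over these 2 lists among 11146 genes, and as it rests on 2 values per gene it describes levels only.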

How the data were processed

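The authors called crosslink sites with iCount on GRCh38 and, after removing IgG crosslink sites from the PDCD4 replicates, deposited 1 list per immunoprecipitation with the 2 replicates pooled. The deposited scores are unnormalized counts of cDNAs at single nucleotides, restricted by the authors to sites under their false discovery rate limit. Such filtering and removal can lower sums at weak sites and at positions bound in both. Sites were assigned by strand to GENCODE release 44 (same build) with coding sequence taking precedence over UTRs, these over non-coding exons and these over introns, and positions on the mRNA use the MANE Select transcript. Log2 ratios used sums per 10000 cDNAs and a pseudocount of 1 cDNA, with exact conditional intervals for ratios, Wilson intervals for shares and exact Poisson intervals for levels. The difference between the exonic and intronic ratios has a normal interval on the log scale. Genes in backgrounds needed at least 50 cDNAs over both lists. The code was tested on simulated data. The members and lists were chosen with earlier results of these data known. Named genes outside the members are ACTN2 and ACTN3, the 3 largest and 3 smallest ratios of the actin list and the 2 genes nearest to each member. KRT5, TP63 and DCN were named outside this rule, after their values were seen. The descriptions of intron 30, exon ends by bands, gaps and dinucleotides were chosen after the values were seen. Software was Python 3.11.15, pandas 2.3.3, scipy 1.17.1, numpy 2.4.6, Biopython 1.88, pysam 0.24.0 and matplotlib 3.10.9. Results that need an item withheld for evaluation are not reported here.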

Additional observations from a re-analysis of the deposited data

How the results depend on the processing

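Of 85 values from alternative settings of 23 results, 68 stayed within the counting interval of the reported value, 15 left it with the same direction where a direction applied, and 2 turned. With the cDNAs in exons of protein-coding genes as the total, the log2 ratios were 1.57 for FLNA, -1.21 for ACTN1 and -0.18 (turned) for ACTN4, and above a score of 5 the bounds were 0.10 for ACTN1 and 0.56 for ACTN4 (log2). Counting sites in place of cDNAs gave -0.93 for ACTN1 and -0.88 for the introns of ACTN4. For FLNA, scores above 3 in both lists gave 2.51, and above 5 in PDCD4 with above 3 in IgG gave 3.15. Scores above 3 in both lists gave 0.75 (0.21 to 1.38) for ACTN1 and 0.90 (0.29 to 1.62) for ACTN4. Restricted to scores above 5, the CDS share was 66.7% in ACTN1 and 50% in ACTN4, the intron share was 16.7% in FLNA, 33.3% in ACTN1 and 0% in ACTN4, and C or U made up 94.7% of exonic sites. Above a score of 5, a setting chosen after seeing the data, the intronic log2 ratio of FLNA turned to -0.44. Also chosen then, leaving out the printed sites kept the CA or UA shares within their intervals. Windows of 100 nt at exon ends gave 0.66. The cause was not tested. With no IgG count above 5, a pseudocount of 5 and the number of sites gave no value for ACTN1 and ACTN4, and nor did a score above 10 for any member. No paired analysis was possible because each list pools its replicates, and no replicate could be left out. Depth limits the alpha-actinins above a score of 5, with 3 and 4 PDCD4 sites.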
